A study of Apis mellifera with 9 samples.

Results

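Ovaries of egg-laying queens were compared with ovaries of queen-right workers for trimethylation of lysine 27 on histone H3 (H3K27me3) in the honeybee, Apis mellifera. The comparison takes 4 of the 6 peak lists of the study, 2 from queens and 2 from queen-right workers, chosen by the group named in the labels, and these hold 200312 of the 299542 peaks. The queens were about 12 months old, laid eggs and headed colonies, and the labels give no ovary score for them. The queen-right workers came from hives with a laying queen and had an ovary score of 0. The 2 queen-less worker lists (ovary score 3, taken 2 to 4 weeks after a colony was left without its queen) took no part in choosing any region or base below and were read on them afterwards. They did enter the set of scaffolds and their spans, which were taken over all 6 lists. All bees were females of managed colonies, the tissue was the whole ovary, and repeat immunoprecipitations of a sample were pooled, so a group has 2 replicates. Caste and ovary state both differ between the groups and cannot be told apart, nor can either be told apart from age or from the cell makeup of the ovary.

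H3K27me3 is deposited by Polycomb repressive complex 2, through its catalytic subunit Enhancer of zeste, and is read by Polycomb repressive complex 1. In insects it covers broad domains over genes that are kept silent, developmental regulators among them, and it often spreads from a point of recruitment until it meets active chromatin. A queen ovary holds many ovarioles with growing oocytes and nurse cells, whereas the ovary of a worker that lives with a queen is small and held inactive by queen pheromone. The lists give positions on scaffolds of a build not given in the sources used here, so no gene was assigned to a position, and the tissue label was not checked against marker genes.

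The 4 lists were nearly equal in the number of peaks and unequal in the sequence covered, with 1 wide and 1 narrow list in each group. Peaks covered 63.1 and 53.5 Mb in queens 1 and 2, against 64.8 and 48.8 Mb in queen-right workers 1 and 2. Read depth is unknown, and whether it sets this spread was not tested. The 4 lists can be paired in 3 ways: queens against queen-right workers, called by caste below, and 2 crossed pairings. In the crossed pairings queen 1 is put with queen-right worker 1 (the 2 wide lists) or with queen-right worker 2. Caste here only names the split, since ovary state and age differ with it. The crossed pairings carry no difference of caste and show how large a count 2 lists against 2 can give here. The smallest p that an exact two-sided permutation test of 2 against 2 allows is 0.33, so no value below can pass 0.05. The 2 samples of a group were prepared as biological duplicates.

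No width class of peaks separated queens from queen-right workers by its number of peaks or its covered sequence. Peaks of 10 kb or more, the broad domains, covered 7.67 and 4.70 Mb in queens 1 and 2, against 7.59 and 2.27 Mb in queen-right workers 1 and 2. Queens averaged 6.19 ± 2.10 Mb, against 4.93 ± 3.76 Mb for the queen-right workers (SD of 2 lists per group), a difference of 1.26 Mb against a pooled SD of 3.05 Mb (exact permutation p = 0.667). Without queen 1 or without queen-right worker 2 this difference was negative, at -0.22 and -1.40 Mb. Peaks under 500 bases covered 6.63 and 6.84 Mb in queens, against 6.07 and 7.34 Mb in queen-right workers. In this class the queens lay between the 2 queen-right workers (exact permutation p = 1). Each of the 6 classes overlapped between the groups in peak number and in covered sequence. Of the shares that the classes take of a list, only that of peaks of 2 to 5 kb did not overlap, at 28.5% and 28.2% in queens against 30.6% and 28.8% in queen-right workers (exact permutation p = 0.33).

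**Figure D1:**
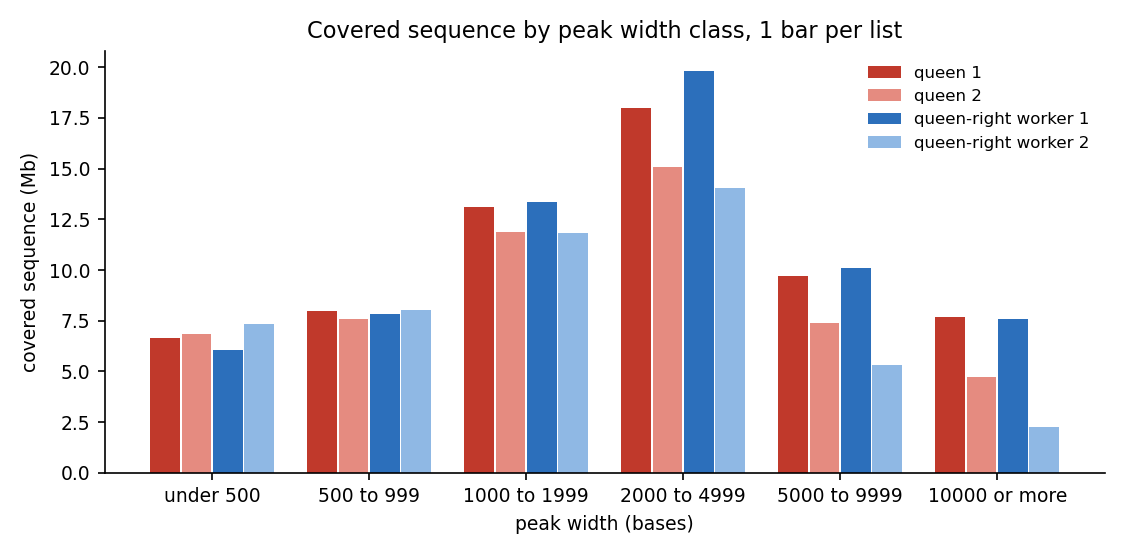
Covered sequence in Mb (vertical axis) by peak width in bases (horizontal axis), with 1 bar for each list and no error bars. In peaks of 10 kb or more queen 1 (7.67 Mb) and queen-right worker 1 (7.59 Mb) stand near each other, and queen 2 (4.70 Mb) and queen-right worker 2 (2.27 Mb) lie below them.

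Positions differed between queens and queen-right workers in more regions than in either crossed pairing. Overlapping peaks of the 4 lists were merged into 54604 regions with 82.0 Mb, and 30564 of them were called in all 4 lists, that is, held at least 1 base of a peak of each. Both queens and neither queen-right worker had 2629 regions, 4.81% of all, and both queen-right workers and neither queen had 2038, or 3.73%. The crossed pairings gave 1654 regions for queen 1 with queen-right worker 1 against 222 for queen 2 with queen-right worker 2, and 462 against 393 in the other pairing. The total of 4667 regions that follow the split of queens from queen-right workers can be set beside 1876 and 855. When each list was cut to its top-scoring peaks up to the 48.8 Mb of the smallest list, the order turned, with 1201 regions for queens and 2577 for queen-right workers. At that setting the pairing of wide against narrow lists gave 86 and 3143, so 1 crossed direction exceeded both caste directions, and the totals were 3778 by caste and 3229 and 799 in the crossed pairings. The caste order also turned without queen-right worker 2 (4379 for queens and 6629 for queen-right workers) and without queen 1 (3870 and 4110). With a list left out, its group is called or excluded by the 1 remaining list, which eases the rule. These counts are therefore not on the scale of the main ones, and how far the turn follows from the eased rule was not tested.

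Regions of queens alone and of queen-right workers alone were narrow and low in score rank beside regions called in all 4 lists. Their median width was 422 bases in queens and 390 bases in queen-right workers, while regions called in all 4 lists had a median of 1307.5 bases. The crossed sets had median widths of 333 to 459.5 bases, so the narrow width was not particular to the 2 groups. Regions of 2 kb or more made up 53 of the 2629 of queens and 19 of the 2038 of queen-right workers. They made up 15 of the 1654 of queen 1 with queen-right worker 1. In the other crossed sets, of 222 to 462 regions, they numbered 0 to 5. Among all 54604 regions 7798 had 2 to 5 kb, 2053 had 5 to 10 kb and 806 had 10 kb or more. In both groups and in each crossed set 0 reached 10 kb. The lower of a region's 2 score ranks, as a percentile of its own list, had a median of 19.4 in regions of queens and 17.2 in regions of queen-right workers. For regions called in all 4 lists, where the lowest of 4 ranks was taken, the median was 37.1. Choosing regions that 2 of the 4 lists lack can by itself favour low ranks. No score ranks are given for the crossed sets, so whether the low rank is particular to the 2 groups was not tested. Regions of queens lay farther from shared ones, with a median distance to the nearest region called in all 4 lists of 2974 bases, against 1898 bases for regions of queen-right workers. The crossed sets had medians of 1241.5 to 2510 bases, so the regions of queen-right workers lay within their range.

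Regions of queens also came in runs. Of the 2629 regions of both queens alone, 822 (31.3%) had another such region as a direct neighbour in the order of all regions on the scaffold. Of the regions of both queen-right workers alone, 315 (15.5%) did, and of the largest crossed set 174 (10.5%) did. A larger set has more such neighbours by its size alone, and these sets hold 4.81%, 3.73% and 3.03% of all regions. How much of the gap comes from set size was not tested. Runs of 3 or more numbered 92 for queens and 17 for queen-right workers. The longest held 7 regions of queens, on scaffold NW_003378077.1 from 754968 to 764886, and 4 regions of queen-right workers, on NW_003378088.1 from 4052445 to 4058761. This count was chosen after the data were seen and has no test.

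By base, 4.46 Mb lay under both queens and neither queen-right worker, 5.43% of the sequence under any of the 4 lists, and 3.11 Mb (3.80%) lay under both queen-right workers and neither queen. The crossed pairings gave 4.14 Mb for the 2 wide lists against 0.263 Mb for the 2 narrow ones, and 0.723 against 1.18 Mb. The queen-only bases thus exceeded the largest crossed value by little, whereas the smaller of the 2 directions was larger by caste than in either crossed pairing. Without queen 1 the values were 6.43 Mb in queens and 6.56 Mb in queen-right workers, and 6.52 and 12.5 Mb without queen-right worker 2. Leaving out queen 2 gave 10.3 and 4.25 Mb, and leaving out queen-right worker 1 gave 10.8 and 5.10 Mb. These sums too come from the eased rule.

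Each stretch of such bases was placed as new (in a region with no peak of the other group), as an extension (beyond the outermost peak of the other group in the region) or as a gap (between peaks of the other group). Of the queen-only bases 21.6% were new, 41.7% were extensions and 36.8% filled gaps. Of the queen-right-worker-only bases 19.0% were new, 47.7% were extensions and 33.2% filled gaps. The bases of queen 1 with queen-right worker 1 alone were 11.4% new, 43.3% extensions and 45.3% gaps, and those of queen 2 with queen-right worker 2 were 17.5%, 52.0% and 30.5%. In the other pairing queen 1 with queen-right worker 2 had 15.1% new, 50.8% extensions and 34.1% gaps, and queen 2 with queen-right worker 1 had 7.92%, 45.5% and 46.6%. The gap shares of both caste sets lay within the range of the crossed sets and their new shares above it, while the extension share lay just below it in queens and within it in queen-right workers. At equal covered bases the new share was 11.7% for queens, against 30.8% for queen-right workers, and the order of that share between castes turned with this setting. The crossed new shares were then 0.937% for the wide lists and 77.1% for the narrow ones, farther apart than the castes.

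**Figure D2:**
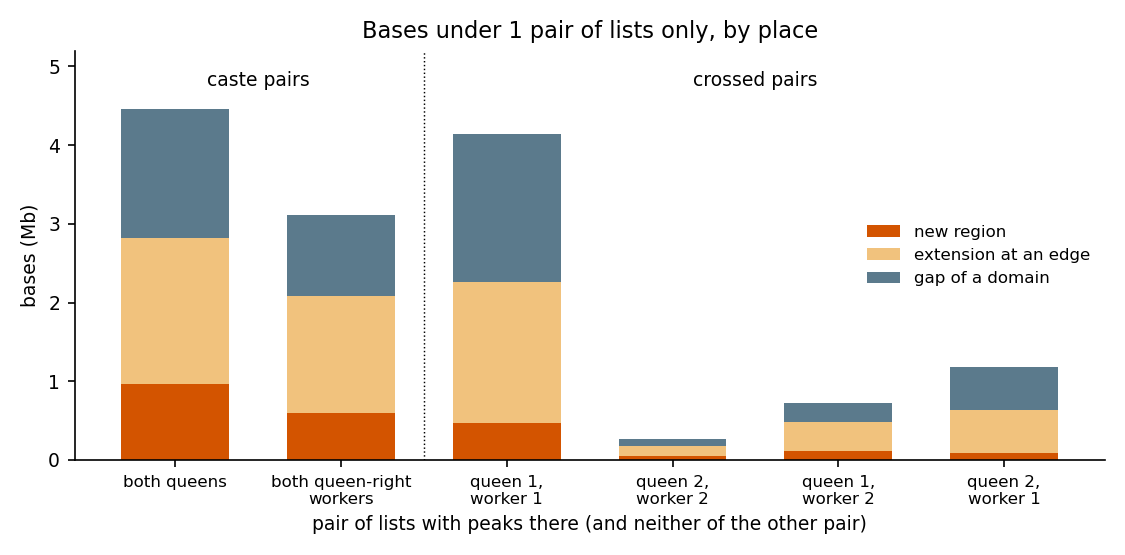
Bases in Mb (vertical axis) under both lists of a pair and neither list of the other pair, for the caste pairs on the left and the crossed pairs on the right (worker stands for queen-right worker), coloured by place. Queens alone hold 4.46 Mb and queen-right workers alone 3.11 Mb, and of the crossed pairs only queen 1 with worker 1 comes near, at 4.14 Mb.

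Long stretches were more frequent in queens. Most stretches were shorter than the shortest peak of any list, 68.9% of those of queens and 74.7% of those of queen-right workers. Stretches of 1 kb or more numbered 598 of 23768 for queens, against 226 of 22235 for queen-right workers. The crossed pairs had 286 of 27148 and 2 of 5005, and 16 of 8903 and 27 of 13564. The longest reached 8422 bases for queens, 2835 bases for queen-right workers and at most 2271 bases for a crossed pair. Among the 598 of queens, 121 were new, 226 were extensions and 251 filled gaps. Whether the order of these counts holds at other settings or with a list left out was not tested.

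The longest new stretch of queens lay on scaffold NW_003378437.1 from 577 to 4360. Its region covered 5787 bases, of which queens 1 and 2 had 99.97% and 82.0% under peaks and both queen-right workers had none. The scaffold is short, and a further region of queens alone lay on it from 8344 to 10158, with scores of 99 and 133 in queens 1 and 2, among the highest score ranks of such regions. On a long scaffold, NW_003378085.1, queens alone had a region of 3953 bases from 1093871 to 1097823. The longest extension ran on NW_003378039.1 from 1486997 to 1492437, in a region of which queens covered 99.7% and 82.7%, against 0% and 2.91% in queen-right workers 1 and 2.

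The longest filled gap of queens was that of 8422 bases, on NW_003378093.1 from 178511 to 186932. It lay inside a domain of 23177 bases from 173510 to 196686 that each queen held as 1 peak, covering 100% and 99.8% of it. Queen-right workers 1 and 2 covered 35.9% and 40.2% of the domain, in 2 and 3 peaks. The next longest, of 4177 and 3962 bases, lay in a single domain on NW_003378115.1 from 766967 to 778916, of which queens covered 90.8% and 99.8%, against 4.64% and 5.75% in queen-right workers.

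Stretches of queen-right workers alone were shorter in each place. The longest new one covered 2547 bases on NW_003378092.1 from 712818 to 715364, where the scores were 44 and 36 in the 2 queen-right workers. The next 2, of 2073 and 2055 bases, lay on scaffolds of 4655 and 12653 bases. The longest extension, of 2093 bases, lay on NW_003378149.1 from 96653 to 98745. In its region of 2564 bases queens covered 13.2% and 11.8%, against 99.5% and 99.3% in queen-right workers. The longest filled gap ran on NW_003378010.1 from 842565 to 845399, in a region of which queens covered 30.8% and 25.9%, against 99.4% and 71.4% in queen-right workers. By score rank the first region of queen-right workers alone was one of 216 bases on NW_003378173.1 from 1622 to 1837.

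Within the long domains that all 4 lists share, the groups overlapped. There were 806 merged regions of 10 kb or more, 13.9 Mb in all, and each was called in every list. Queens 1 and 2 covered 91.5% and 85.2% of their bases, against 90.2% and 76.8% in queen-right workers 1 and 2 (exact permutation p = 0.667). They were cut into 140 and 199 peaks per Mb in queens, against 137 and 269 in queen-right workers (exact permutation p = 1). The difference of -33.5 peaks per Mb became 31.5 without queen-right worker 2. Both queens covered more bases than both queen-right workers in 214 domains (26.6%) and fewer in 89 (11.0%). The pair of wide lists covered more than the pair of narrow lists in 405 domains and fewer in 1. In these long domains the crossed pairing of wide against narrow lists thus gave more differing domains than caste did.

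As an example, the longest shared domain with fewer peaks in each queen ran over 101998 bases on NW_003378111.1 from 771288 to 873285. It was held as 1 and 2 peaks in queens, against 3 and 17 in queen-right workers, at a cover of 99.8% and 99.2% against 98.6% and 87.2%. The reverse example, of 40492 bases on NW_003378058.1 from 287348 to 327839, had 8 and 8 peaks in queens, against 2 and 7 in queen-right workers.

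Similarity by base was set out by width. The Jaccard index is the bases under both lists divided by the bases under either. It was 0.724 for the 2 queens, 0.627 for the 2 queen-right workers and 0.608 to 0.643 for the 4 pairs of a queen and a queen-right worker. The mean within groups exceeded that between groups by 0.0532, and the crossed pairings gave -0.0056 and -0.0476. The excess was 0.0927 in regions under 500 bases and 0.0292 in regions of 10 kb or more, and was smaller in each wider class. Over all widths it was 0.0018 without queen 2 and 0.0079 without queen 1, which leave only the pair of queen-right workers within a group. Over all widths the excess thus rests on the pair of queens. The index is limited where 2 lists differ in covered bases. The queen-right workers (64.8 and 48.8 Mb) differed more than the queens (63.1 and 53.5 Mb). How far this lowers the index of the queen-right workers was not tested. With each list cut to equal covered bases the excess was 0.0642. In regions under 500 bases the pair of queen-right workers, at 0.427, also exceeded each pair between groups (0.363 to 0.397). In the next wider class it did so too, at 0.485 against 0.431 to 0.475. In the classes wider still it lay below the highest pair between groups.

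The difference of place could be seen at the scale of whole stretches of scaffolds. Scaffolds were cut into 10597 windows of 20 kb, a size chosen after the data were seen, and the share of each window under peaks was taken for each list. Both queens lay above both queen-right workers by more than 20 percentage points in 145 windows (1.37%) and below them by as much in 22 windows (0.208%). The crossed pairings gave 34 and 0, and 0 and 0. After peaks closer than 1 kb were joined, caste gave 191 and 57 windows and the pairing of wide against narrow lists 121 and 0. At a distance of more than 10 points caste gave 457 and 140 windows and the pairing of wide against narrow lists 621 and 0, so the lead of the caste pairing was seen at the larger distance only. The windows with queens higher had median covers of 61.9% and 58.6% in queens 1 and 2, against 15.8% and 24.2% in queen-right workers 1 and 2. Queen-right worker 1, the list with the most covered bases of the 4, was thus the lower one there. Without queen-right worker 2 the counts were 226 windows with queens higher and 428 with queens lower, so the order of the 2 directions turned. The rule is eased here too, since 1 list then stands for its group. With each other list left out in turn queens were higher in 157 to 420 windows and lower in 30 to 58.

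**Figure D3:**
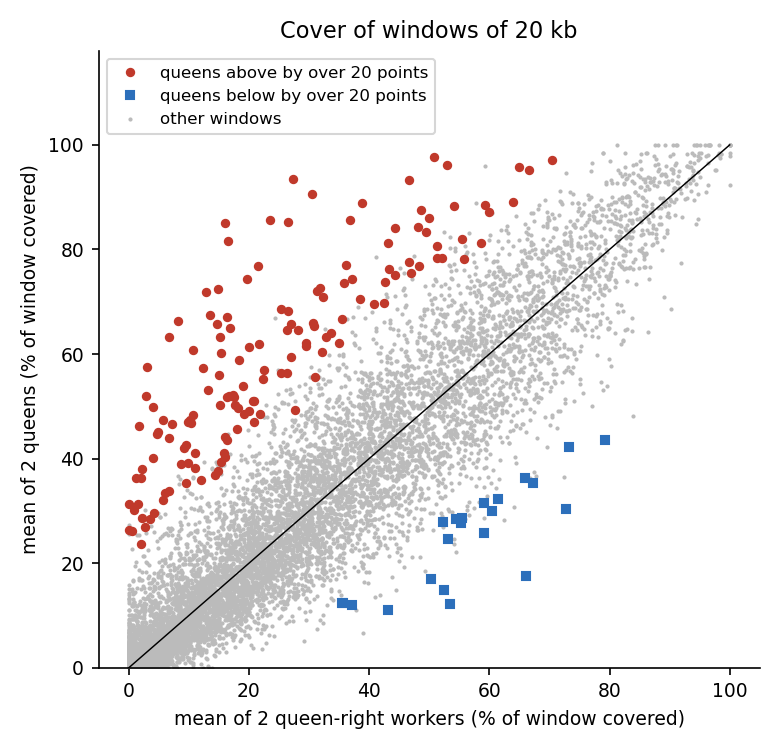
Share of each of 10597 windows of 20 kb under peaks, as the mean of 2 queen-right workers (horizontal axis, %) and of 2 queens (vertical axis, %), with the line of equal cover. Circles mark the 145 windows with both queens above both queen-right workers by over 20 points, and squares the 22 windows with both below.

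The 145 windows lay on 49 scaffolds in 114 runs and held 16.1% of the queen-only bases, of which 42.3% filled gaps and 41.2% were extensions. Scaffold NW_003378123.1 had 22 of them, between 100001 and 3840000, with mean covers of 72.0% and 68.4% in queens against 29.8% and 37.0% in queen-right workers. The longest run, 5 windows on NW_003378039.1 from 1420001 to 1520000, was covered by 85.1% and 80.7% in queens, against 32.3% and 42.1% in queen-right workers, and it includes the longest extension named above. On NW_003377959.1, 9 windows between 100001 and 340000 were covered by 44.2% and 41.4% in queens, against 2.76% and 8.20% in queen-right workers. The widest distance was in the window from 180001 to 200000 on NW_003378093.1, the site of the longest filled gap. It was covered by 96.7% and 90.1% in queens, against 23.7% and 30.9% in queen-right workers. Of the 22 windows with queens lower, that with the widest distance lay on NW_003378149.1 from 80001 to 100000, with 24.0% and 11.0% in queens against 69.7% and 62.4% in queen-right workers.

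**Figure D4:**
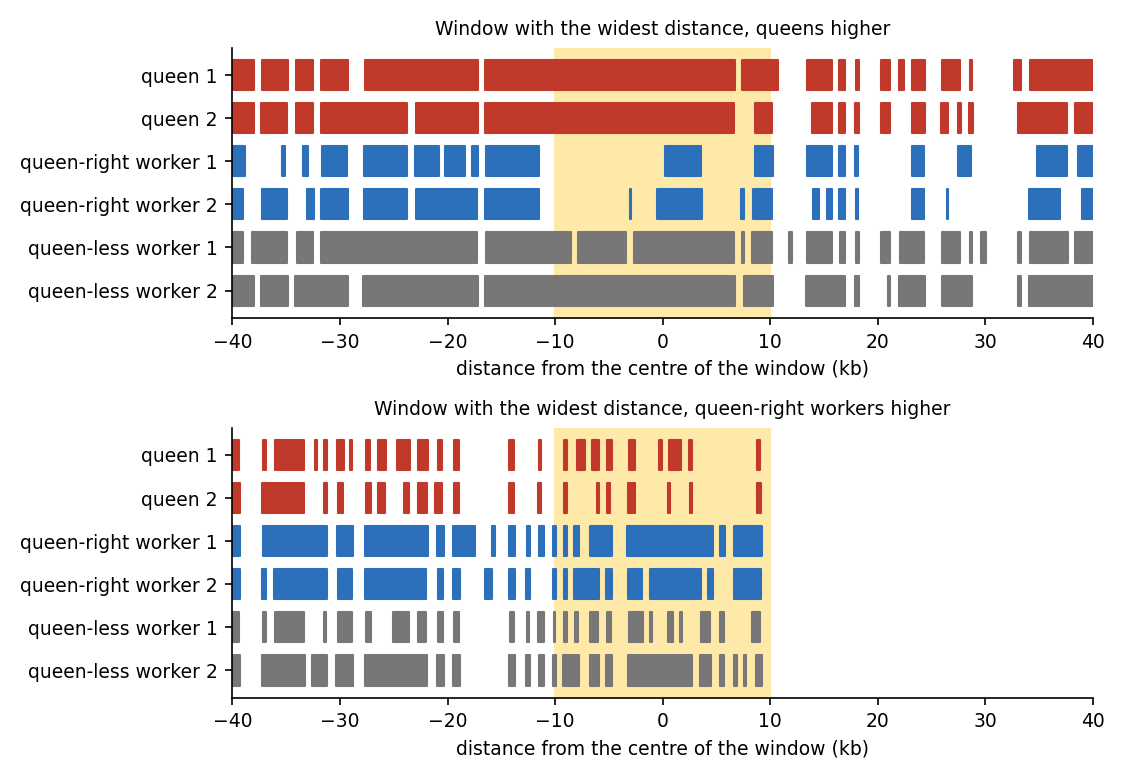
Peaks of all 6 lists (rows) up to 40 kb on each side of the centre of the window with the widest distance in each direction (horizontal axis, kb from the centre), with the window of 20 kb shaded. In the upper panel the domain of the queens is continuous where the queen-right workers have gaps, and both queen-less workers cover most of it. In the lower panel the peaks of the queens fill less of the shaded window than those of the queen-right workers (24.0% and 11.0% in queens, against 69.7% and 62.4% in queen-right workers).

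Whole scaffolds were compared by relative coverage, the covered share of a scaffold divided by the covered share of all scaffolds in the same list. Of 304 scaffolds of at least 100 kb, both queens lay above both queen-right workers on 58 (19.1%) and below them on 117 (38.5%), while the crossed pairings gave 43 and 33, and 31 and 12. Without the division the counts were 31 and 29, and on scaffolds of at least 1 Mb they were 18 and 20. NW_003378115.1, with a span of 869440 bases, was covered by 25.4% and 21.9% in queens, against 9.55% and 11.7% in queen-right workers. NW_003377959.1 was covered by 24.1% and 21.7% in queens, against 11.1% and 13.1% in queen-right workers, and NW_003377956.1 by 49.4% and 40.4% against 40.7% and 23.4%, where queen 2 lay below queen-right worker 1 before the division. In the other direction NW_003378157.1 was covered by 29.4% and 28.8% in queens, against 43.4% and 35.3% in queen-right workers, and NW_003377936.1 by 24.3% and 22.3% against 39.9% and 26.7%. On NW_003377964.1, with 22.9% and 14.8% in queens against 53.0% and 21.1% in queen-right workers, the cover of queen 1 exceeded that of queen-right worker 2 before the division.

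Queen-only bases were more concentrated than queen-right-worker-only bases. The 10 scaffolds richest in them held 27.8% of them, against 17.1% for queen-right-worker-only bases, 22.3% for the bases of queen 1 with queen-right worker 1 alone and 15.3% for the 10 longest scaffolds' share of the span. The smallest scaffolds went the other way. The 1319 scaffolds with a span under 10 kb were covered by 10.8% and 10.7% in queens, against 17.8% and 17.0% in queen-right workers. This gave the smallest p an exact permutation can (p = 0.33). Those of 10 to 100 kb were covered by 6.76% and 5.41% in queens, against 7.83% and 7.19% in queen-right workers (exact permutation p = 0.33). The 2 queen-less workers covered 5.47% and 30.8% of the scaffolds under 10 kb, so replicates of a group can lie farther apart there than the castes do. On scaffolds of 1 Mb or more the groups overlapped, at 35.7% and 30.5% in queens against 35.8% and 26.97% in queen-right workers.

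The queen-less worker lists gave a readout that had no part in choosing the bases. Of the queen-only bases, 69.4% lay under peaks of queen-less worker 1 and 87.8% under those of queen-less worker 2. Of the queen-right-worker-only bases, 27.3% and 72.1% did. The 4 crossed sets lay between these, at 37.5% to 52.6% for queen-less worker 1 and 80.1% to 83.2% for queen-less worker 2. Over all bases under any of the 4 lists the shares were 66.1% and 84.7%, so the queen-only bases lay near the share of all covered bases and the queen-right-worker-only bases below it. Under both queen-less workers lay 63.4% of all those bases, and 64.2% of the queen-only and 24.3% of the queen-right-worker-only bases, and the share was higher for queen-only bases with each of the 4 lists left out in turn, by the least without queen 1 (51.3% and 42.1%). At equal covered bases the shares were 38.6% and 14.6%. The order also held in each place: new bases were under both queen-less workers at 56.5% for queens and 13.5% for queen-right workers, extensions at 62.3% and 25%, and filled gaps at 70.9% and 29.5%. With 2 queen-less lists of 59.2 and 78.0 Mb, no test of this difference was run.

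**Figure D5:**
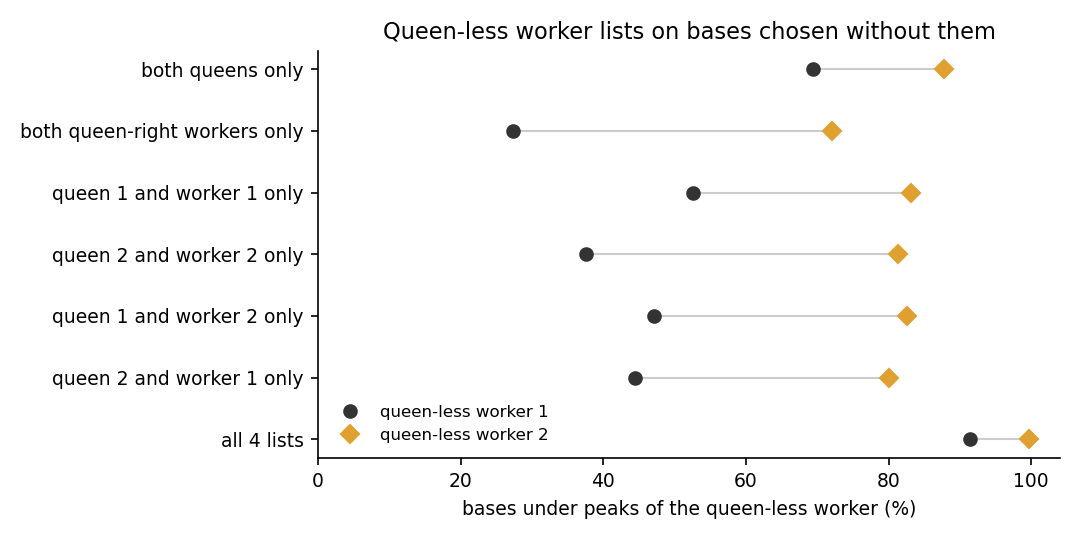
Share (%) of the bases of each set (rows) that lies under peaks of queen-less worker 1 (circles) and queen-less worker 2 (diamonds). The bases of both queens only have the highest shares of the 6 sets that follow 1 pair of lists (69.4% and 87.8%), the bases of both queen-right workers only the lowest (27.3% and 72.1%), and worker in the crossed sets stands for queen-right worker.

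Region by region, 1688 of the 2629 regions of queens alone (64.2%) were called in both queen-less workers and 141 (5.36%) in neither. Of the 2038 regions of queen-right workers alone, 433 (21.2%) were called in both and 461 (22.6%) in neither. Both queen-less workers had 30.2% to 49.3% of the regions of the 4 crossed sets and 92.2% of the regions called in all 4 lists. No share over all regions is given. By base the queen-only share under both queen-less workers (64.2%) lay near that of all covered bases (63.4%). The 145 windows with queens higher were chosen for low cover in both queen-right workers, which by itself favours higher cover in the queen-less workers. The median covers of the 2 queen-less workers there were 60.8% and 73.4%. Both lay above both queen-right workers in all 145 windows, and in 31.1% of all 10597 windows. In the 34 windows where the wide lists lay above the narrow ones, both queen-less workers lay above both narrow lists in 31. In the 22 windows with queens lower, chosen for low cover in both queens, both queen-less workers lay above both queens in 9. No share over all windows is given for that count or for the 31 of 34. Queen-less worker 1 lay below both queen-right workers in all 22, against 24.8% of all windows. Both queen-less workers did so in 10 (45.5%), against 3.73% of all windows. The choice of windows by itself favours this too. The 2 queen-less workers differed there, with median covers of 22.9% and 51.2%. Queen-less worker 1 lay nearer the queens in 21 windows and queen-less worker 2 in 2.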

How the data were processed

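Per the labels, ovary chromatin was immunoprecipitated for H3K27me3, repeat immunoprecipitations were pooled, and 2 samples per group were sequenced. The submitters' processing notes name Bowtie 1.0, SAMtools 1.5, MACS2 and bedtools. The genome build, and how the 3 inputs (1 per group, not analysed here) entered the peak calls, are not given in the sources used here. The input and the group therefore cannot be told apart. The authors deposited 1 list of broad peaks per sample, with columns for the scaffold, start and end, and peak names that mention broad calling at 0.1. The deposited score of a peak has a lowest value of 10 and was used only within its own list. Read depth is unknown, so no counting interval is given, and a deeper library can yield wider peaks.

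Positions are counted from 1. The span of a scaffold was its farthest peak end over the 6 lists (220.2 Mb on 1834 scaffolds). Scaffold lengths were not known, so each scaffold size given is this span. Regions, stretches and windows are described by counts, with no test across them, and values per list were compared by exact two-sided permutation. The list of each sample was taken from its record, since the peak names in the queen lists are numbered differently from their labels. The placing of stretches was tested on simulated data, which recovered 100% of 200 planted stretches per place among 5000 regions. The regions named were the 3 longest stretches of each place and group, the 3 new regions of each group with the highest lower score percentile, the 3 scaffolds of at least 100 kb with the largest difference in each direction, and the longest shared domain with fewer peaks in each group. A few of these are given by count only, and runs of regions and windows were named after their values were seen. The groups, settings and rules were chosen with earlier results of these data known. Alternatives were a minimum score of 20, lists cut to equal covered bases by score, joining of peaks closer than 1 kb, merging over all 6 lists, stretches of at least 200 bases, peaks covering at least 50% of a region, scaffolds of at least 1 Mb, undivided coverage, omission of each list in turn and a replicate block. Windows, with their alternatives, and a limit to scaffolds of at least 100 kb were added after the data were seen. Scripts ran in Python 3.11.15 with NumPy 2.4.6, and plots were drawn with matplotlib 3.10.9.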

Additional observations from a re-analysis of the deposited data

How the results depend on the processing

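Of 162 alternative values of 18 results, 117 stayed within 1.5 times a count, sum or share or within the pooled replicate SD of a difference (for similarity, the SD of the 4 pairs between groups, 0.0169), and 45 moved further. No value could pass a threshold with 2 lists against 2, so there was no call to reverse, and changes of sign were not counted apart. Some of the 117 changed sign with a list left out. The difference in peaks of 10 kb or more went from 1.26 Mb to -0.22 and -1.40 Mb. That in peaks under 500 bases went from 0.03 Mb to -0.07 and -0.60 Mb, and that in peaks per Mb from -33.5 to 31.5. Except where the setting itself keeps fewer or joins peaks, the cause was not tested. Read depth, the build and the use of inputs limit every value.

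With a minimum score of 20, covered bases in peaks under 500 bases were 0.685 Mb higher in queens and the new share of queen-only bases was 33.2%. At equal covered bases the difference in peaks under 500 bases was -0.86 Mb, queen-only regions numbered 1201, the new shares were 11.7% for queens, against 30.8% for queen-right workers, the shares under both queen-less workers were 38.6% and 14.6%, and windows with queens lower numbered 75. That setting kept 29258 and 39570 peaks of queens 1 and 2, against 27906 and 50922 of queen-right workers 1 and 2. Joining peaks closer than 1 kb gave 1715 regions in queens and 1263 in queen-right workers, a new share of 11.1% in queen-right workers and 57 windows with queens lower, and windows of the wide over the narrow lists then numbered 121. Scaffolds of at least 1 Mb gave 18 with queens above and 20 below, and undivided coverage gave 31 and 29. Windows of 50 kb gave 44 with queens higher and 1 lower, and a distance of more than 10 points gave 457 and 140. Of the 145 windows with queens higher, 135 remained with a minimum score of 20, 84 at equal covered bases, 121 after joining and 66 under all of these.

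Leaving out each list in turn gave 3870 to 5679 regions and 6.43 to 10.8 Mb in queens alone, and 2742 to 6629 regions and 4.25 to 12.5 Mb in queen-right workers alone. In queen-right workers alone the gap share was 20.4% to 34.4% and the share under both queen-less workers 17.6% to 42.1%. Scaffolds with queens above numbered 79 to 103, peaks per Mb of shared domains differed by -119 to 31.5, and the similarity difference was 0.0018 to 0.104. Windows with queens higher numbered 157 to 420 and lower 30 to 428.

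The labels give both groups the numbers 1 and 2. With a replicate block, which drops pairs of a queen and a queen-right worker with equal numbers, the similarity difference was 0.0672, and there was no call to change. Deviations of same-numbered samples over 221068 bins of 1 kb correlated at 0.126, with only 2 pairs. Both lists numbered 1 were the wide ones and both numbered 2 the narrow ones. Whether same-numbered samples share more than a number was not tested. In such a block the smallest exact permutation p is 0.5.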
